A study of Macaca fascicularis with 20 samples.

Results

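The miR-125 and miR-99/100 families were followed across 7 regions of the fetal visual cortex of the crab-eating macaque. The rows mir-125a, mir-125b, mir-99a, mir-99b and mir-100 of the count tables were taken, with both arms of each hairpin, which gave 10 arms of 5 names among 1656 arms of 828 names. The arms were chosen by name, with earlier results of these data known, and were described in that choice as among the most abundant here. Their high ranks and shares are therefore part of the choice and not a separate finding. miR-125a and miR-125b are the mammalian members of the lin-4 family, found first in the worm as a timer of developmental stages, and share a seed, the stretch of a miRNA that pairs with its targets. miR-99a, miR-99b and miR-100 share another seed and are known to repress components of mTOR signalling. In mammals the names sit together in clusters, each with a let-7 gene, so that miR-99a lies with let-7c and a copy of miR-125b, miR-100 with let-7a and the other copy of miR-125b, and miR-99b with let-7e and miR-125a. miR-125b is abundant in brain and is known to favour neuronal differentiation in cultured neural cells.

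The tissue was cut from sections with a UV laser microscope. It came from areas 17 and 18 and from 3 layers: the ventricular zone (VZ), which lines the ventricle and holds dividing radial glia, the outer subventricular zone (OSVZ), a second and in primates enlarged progenitor layer, and the cortical plate (CP), which young neurons enter after migration. In area 17 the OSVZ was sampled in its innermost part (OSVZ_17int) and its outermost part (OSVZ_17ext). Each of the 7 regions (VZ_17, VZ_18, OSVZ_17int, OSVZ_17ext, OSVZ_18, CP_17 and CP_18) had 2 libraries, replicate 1 from set 1 at embryonic day 80 and replicate 2 from set 2 at embryonic day 79, so that VZ and CP had 4 libraries each and OSVZ had 6. The labels name no genotype, sex or treatment, and do not say how many animals were used. By these days the 2 libraries of a region came from different fetuses, but whether the regions of a set share a fetus is not stated, so the p-values measure the spread among these libraries.

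Library totals were between 3603478 and 9517217 counts. The scaling factors of the TMM method, which sets libraries to the same typical arm, ran from 0.567 to 1.51 and differed between the sets, so levels are given as shares of all counts of a library and tests use the TMM-scaled fit. Earlier work on these data had set apart VZ_18 replicate 1 and VZ_17 replicate 2, and calls were also made without this pair. Marker arms of the zones matched the labels: summed over the 2 arms of miR-92b, a miRNA of cortical progenitors, TMM-scaled CPM, counts set to a common library size, were 25990 to 52640 in VZ, 13700 to 25540 in OSVZ and 523 to 1098 in CP, and summed over 17 neuronal arms they were 2947 to 4327 in VZ, 2741 to 5767 in OSVZ and 16660 to 24690 in CP. The neuronal miRNA miR-124-3p was near 0 in every zone, with a mean of 1.96 CPM in CP.

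The 10 arms together took 36.3% to 62.5% of the counts of a library. Their mean share was 46.5% ± 7.56 in VZ (SD, n = 4), 49.3% ± 5.94 in OSVZ (SD, n = 6) and 58.0% ± 3.65 in CP (SD, n = 4). The miR-125 family alone took 31.0% to 43.1% in VZ, 32.9% to 44.2% in OSVZ and 47.4% to 59.3% in CP. The miR-99/100 family took 5.33% to 10.7% in VZ, 5.86% to 13.3% in OSVZ and 3.13% to 8.04% in CP. So the share of the miR-125 family did not overlap between either germinal zone and CP, whereas that of the miR-99/100 family did. Shares of a library are tied to each other: where an arm with such a share is higher, the others are lower by construction. In bulk tissue, fewer cells of a type and less of a miRNA per cell cannot be told apart.

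Ranked by mean TMM-scaled CPM among the 1139 arms tested, miR-125b-5p was the first, miR-99a-5p the third and miR-125a-5p the fourth. miR-100-5p had rank 29 and miR-99b-5p rank 33. The 3p arms followed with ranks 57 for miR-99a-3p, 73 for miR-125b-3p, 98 for miR-99b-3p, 256 for miR-125a-3p and 334 for miR-100-3p. In each name the 5p arm was the main product. It made up 99.6% to 99.9% of the counts of miR-125b, 99.8% to 99.98% of miR-125a, 98.99% to 99.97% of miR-100, 96.6% to 98.9% of miR-99a and 74.8% to 93.1% of miR-99b over the 14 libraries. The 3p arm thus held its largest part in miR-99b.

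**Figure D1:**
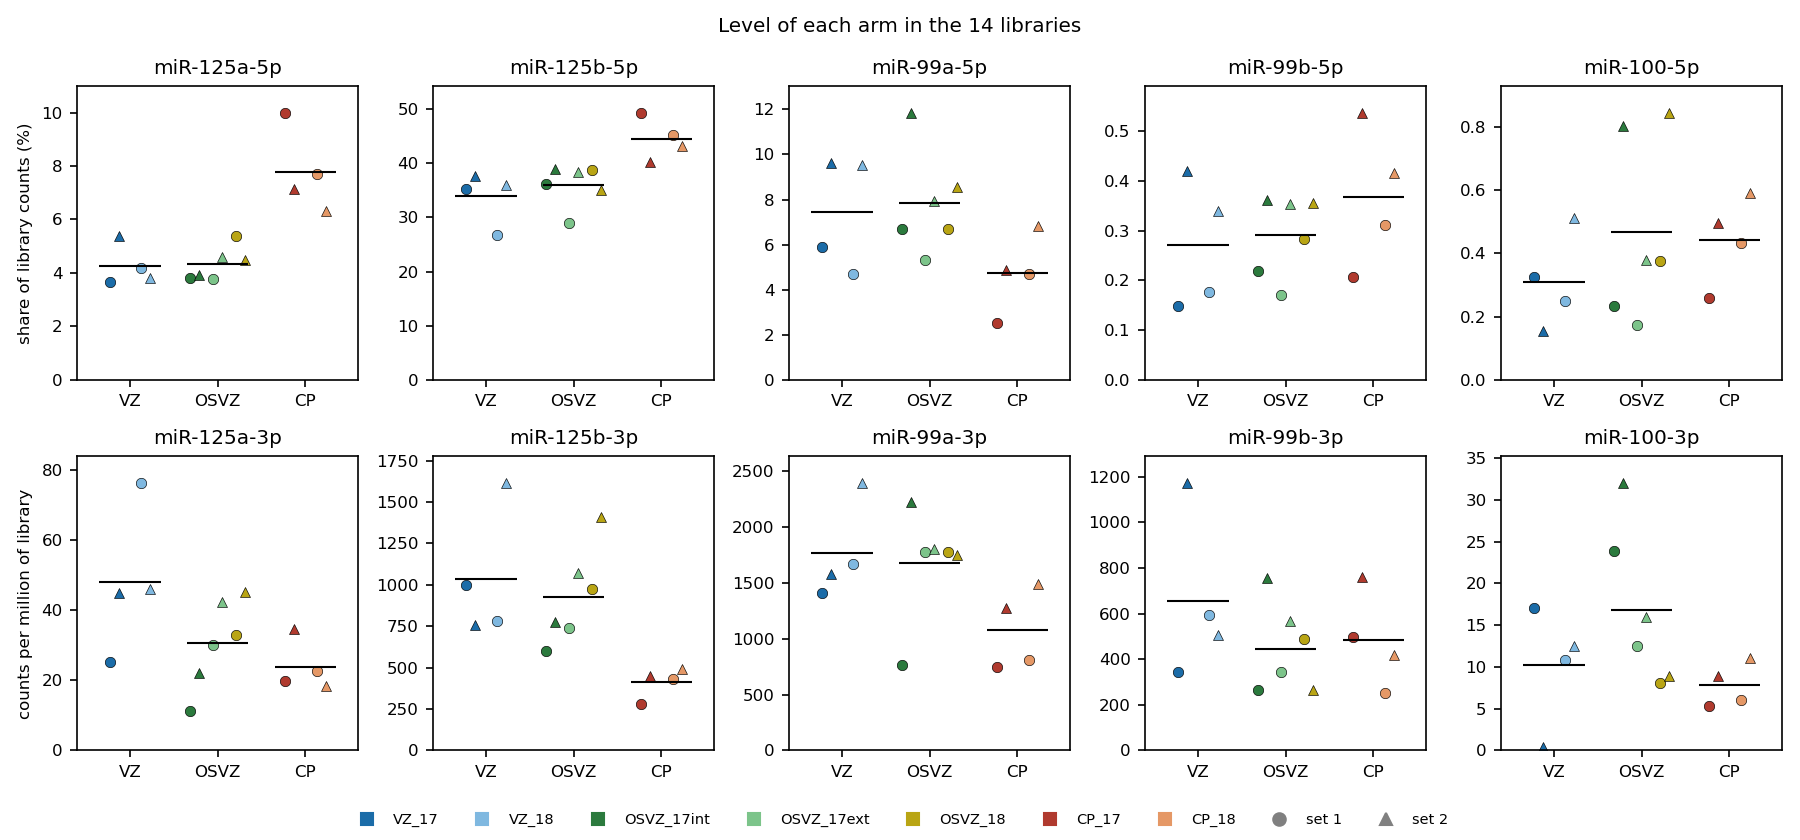
Each panel plots 1 of the 10 arms in the 14 libraries, as percent of library counts for the 5p arms (upper row) and unscaled CPM for the 3p arms (lower row), by zone; circles are set 1, triangles set 2, colours regions, and the line is the zone mean. The CP libraries of miR-125a-5p, at 6.33% to 9.99%, all lie above the VZ and OSVZ libraries, and those of miR-125b-3p all lie below them.

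miR-125a-5p, the main product of the miR-125 gene clustered with let-7e, was the one member called between zones, and was lower in VZ than in CP. Its share was 3.66% and 5.39% in VZ_17 and 4.17% and 3.79% in VZ_18 (replicates 1 and 2 in each), against 9.99% and 7.14% in CP_17 and 7.70% and 6.33% in CP_18. In OSVZ the lowest share was 3.79%, the median 4.20% and the highest 5.39%. All 10 germinal libraries were below all 4 CP libraries, with CP_17 replicate 1 the highest of all, and the germinal zones overlapped with each other. By edgeR's quasi-likelihood test with Benjamini-Hochberg adjustment, miR-125a-5p was 2.47-fold lower in VZ than in CP (log2 difference -1.30 ± 0.40 SE, 95% interval -2.11 to -0.50, adjusted p = 0.0347). The difference was -1.71 in set 1 and -0.93 in set 2. Of the 10 members, 0 were called higher and 1 lower, where 7.37% of the 1139 arms were called (2.63% higher and 4.74% lower), and 4 of 10 members had an unadjusted p under 0.05, where 21.3% of all arms had one. The call was made in 3 of 8 other settings, and the adjusted p was 0.19 without the replicate set as a block. With 1 library left out at a time it was between 0.00981 and 0.265, and under 0.05 in 1 of 14 fits, the one without VZ_18 replicate 2. Without VZ_18 replicate 1 and VZ_17 replicate 2 it was 0.0928, with a log2 difference of -1.02.

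miR-125a-5p was ordered by region, from the highest mean share, as CP_17 (8.57%), CP_18 (7.02%), OSVZ_18 (4.94%), VZ_17 (4.52%), OSVZ_17ext (4.19%), VZ_18 (3.98%) and OSVZ_17int (3.85%). Only between CP_18 and OSVZ_18 did the pairs of libraries of neighbours in this order fail to overlap. Its difference between OSVZ and CP was -1.03 ± 0.36 and was not called (adjusted p = 0.0919 by edgeR), with -1.02 in set 1 and -1.04 in set 2.

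miR-125b-5p, the most abundant of all arms, had shares of 35.3% and 37.6% in VZ_17 and 26.8% and 36.1% in VZ_18, against 49.3% and 40.2% in CP_17 and 45.1% and 43.2% in CP_18. In OSVZ its lowest share was 29.1%, the median 37.2% and the highest 38.9%. The CP libraries were again above all germinal libraries, and the lowest of all was VZ_18 replicate 1. In the scaled fit, VZ against CP was at -0.80 ± 0.45 (adjusted p = 0.298 by edgeR) and OSVZ against CP at -0.54 ± 0.41 (adjusted p = 0.654), neither of which was called. Without VZ_18 replicate 1 the VZ difference was -0.31 (adjusted p = 0.744), without VZ_18 replicate 2 it was -1.19 (adjusted p = 0.069), and without VZ_18 replicate 1 and VZ_17 replicate 2 it was -0.29. That of OSVZ was -0.27 without CP_17 replicate 1. Regions with neighbouring mean shares overlapped at every step except between CP_18 and OSVZ_17int. Shares of VZ and CP did not overlap for 3 of 10 members (1 higher and 2 lower), where 9.83% of the tested arms did not overlap (4.57% higher and 5.27% lower). Those of OSVZ and CP did not overlap for the same 3, where 7.20% did not (3.42% higher and 3.78% lower). The third was miR-125b-3p.

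miR-125b-3p, the minor arm of the same hairpins, had the opposite order of zones. It had 998 and 756 CPM of unscaled counts in VZ_17 and 781 and 1613 CPM in VZ_18, against 278 and 451 CPM in CP_17 and 429 and 494 CPM in CP_18. In OSVZ the lowest value was 603 CPM, the median 874 CPM and the highest 1408 CPM. Every germinal library was above every CP library, and VZ_18 replicate 2 was the highest. In the scaled fit miR-125b-3p was at 0.97 ± 0.38 in VZ against CP (adjusted p = 0.136 by edgeR) and at 1.01 ± 0.36 in OSVZ against CP (adjusted p = 0.104), with no call. Both depended on the setting: each was called in 5 of 8 other settings, and VZ against CP reached 1.68 with an adjusted p of 0.00109 without VZ_18 replicate 1 and VZ_17 replicate 2. With 1 library left out at a time, VZ against CP was called in 2 of 14 fits (0.45 to 1.48, adjusted p 0.0126 to 0.504 by edgeR). OSVZ against CP was called in 3 of 14 such fits (adjusted p 0.021 to 0.317).

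**Figure D2:**
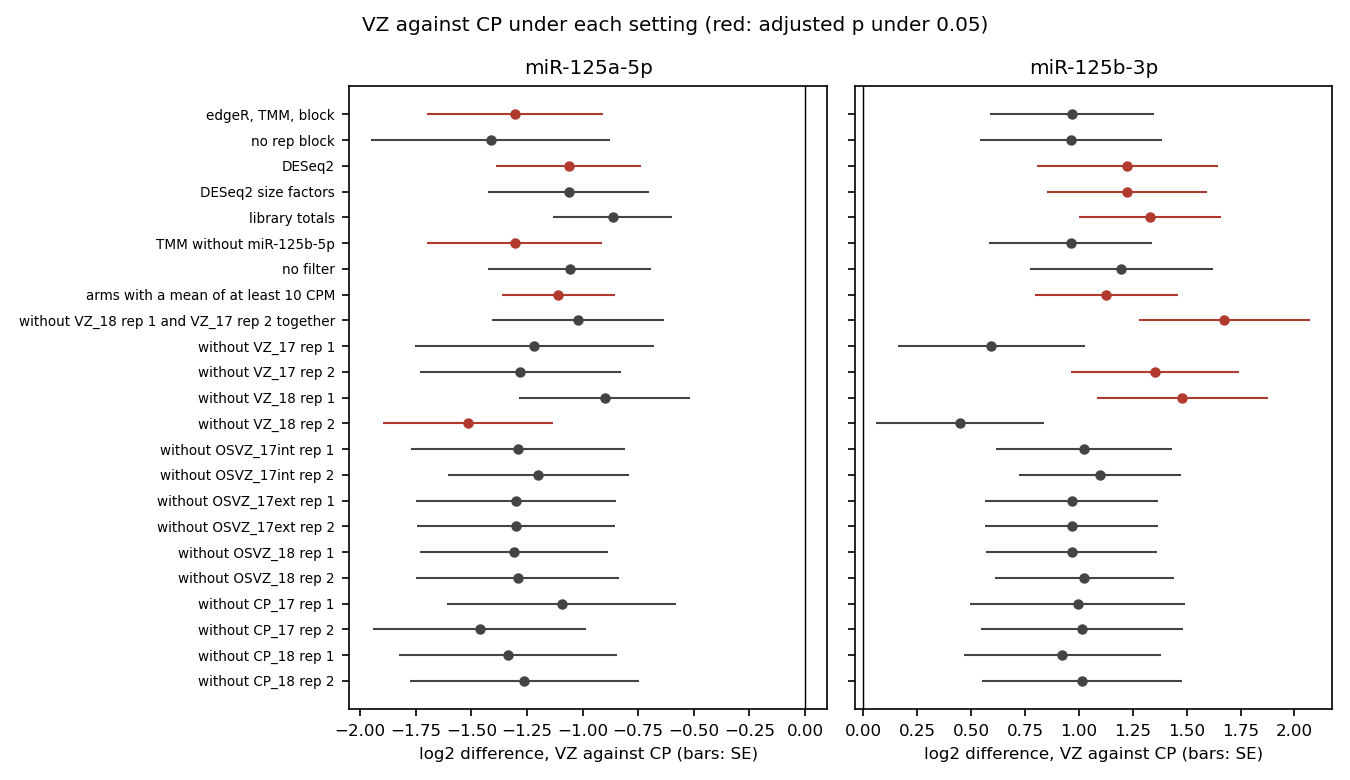
The log2 difference of VZ against CP with its SE (bars) is plotted for miR-125a-5p (left) and miR-125b-3p (right) under each setting of the test, red where the adjusted p is under 0.05. The direction is the same in each plotted setting, from -1.52 to -0.87 for miR-125a-5p and from 0.45 to 1.68 for miR-125b-3p, while the call is not made in all of them.

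miR-125a-3p, the minor arm of miR-125a, was at 25.3 and 44.9 CPM in VZ_17 and 76.2 and 46.2 CPM in VZ_18, against 19.8 and 34.7 CPM in CP_17 and 22.6 and 18.3 CPM in CP_18. Its lowest OSVZ value was 11.2 CPM, the median 31.4 CPM and the highest 45.2 CPM. The zones overlapped, with VZ_18 replicate 1 the highest library, and the scaled differences from CP were 0.51 ± 0.66 in VZ and 0.14 ± 0.61 in OSVZ, neither called.

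A ratio of both arms of a name within a library does not depend on scaling. For miR-125b the name covers 2 gene copies, so its ratio is not that of 1 hairpin. How the 3p reads of the 2 copies were counted is not given, and the part of each copy was not tested. The 5p to 3p ratio of miR-125b was 354 and 497 in VZ_17 and 343 and 224 in VZ_18, against 1774 and 892 in CP_17 and 1052 and 874 in CP_18. In OSVZ the lowest ratio was 248, the median 395 and the highest 598. The ratio was lower in every germinal library than in every CP library. On the log2 scale it averaged 8.41 ± 0.47 in VZ, 8.65 ± 0.43 in OSVZ and 10.1 ± 0.48 in CP (SD, n = 4, 6 and 4), a difference of -1.69 in VZ against CP (exact two-sided permutation p = 0.0286, the smallest that 4 against 4 libraries can give) and of -1.45 in OSVZ against CP (exact permutation p = 0.00476, the smallest for 6 against 4). After Benjamini-Hochberg adjustment over 51 tests of 17 ratios in 3 zone pairs, these were 0.104 and 0.0607, and none of the 51 ratio tests passed (exact permutation tests, in which 4 against 4 libraries could not go below 0.0286). The 5p to 3p ratio of miR-125a was 1441 and 1198 in VZ_17 and 546 and 820 in VZ_18, against 5031 and 2055 in CP_17 and 3392 and 3454 in CP_18. VZ and CP did not overlap in it, at a log2 difference of -1.82, while OSVZ, at 989 to 3361, overlapped with CP at a difference of -1.11.

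Among the 5 names, the 5p to 3p ratio of 2 did not overlap between VZ and CP, where 15.8% of 101 names with both arms at 10 CPM or more did not, and that of 1 did not overlap between OSVZ and CP, where 6.93% did not. The median difference from CP over the 101 names was -0.20 in VZ and -0.25 in OSVZ. All 3 hairpins of the miR-99/100 family overlapped between zones in this ratio. The ratio of miR-99a was 28.0 to 60.9 in VZ, 29.8 to 87.7 in OSVZ and 34.1 to 57.7 in CP, with differences of -0.07 and 0.13 from CP. The ratio of miR-99b was 2.97 to 6.71 in VZ, 4.76 to 13.5 in OSVZ and 4.17 to 12.4 in CP, and that of miR-100 was 191 to 3155 in VZ, 97.4 to 937 in OSVZ and 481 to 701 in CP. The highest miR-100 ratio came from VZ_17 replicate 2, in which miR-100-3p had 2 counts.

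**Figure D3:**
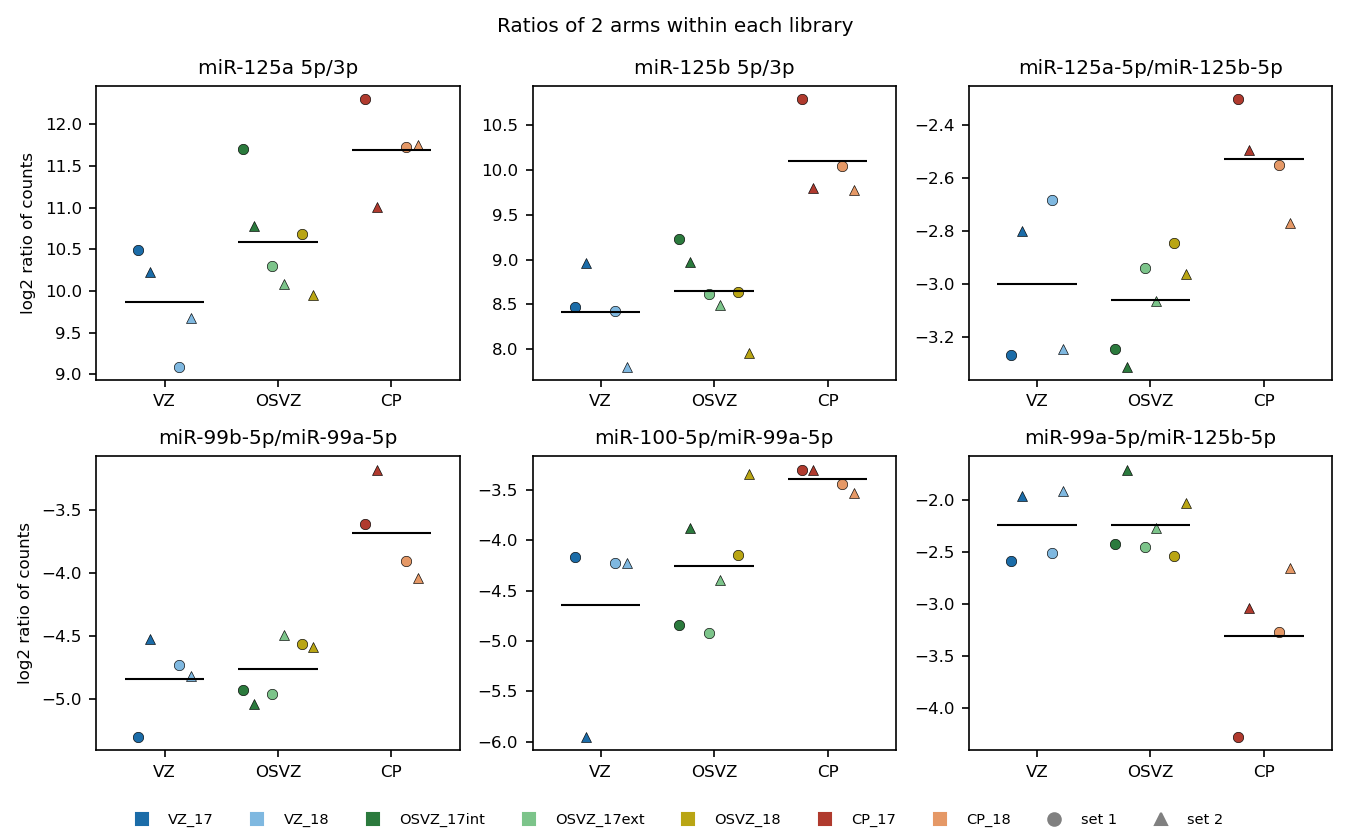
Each panel plots the log2 ratio of the counts of 2 arms within each of the 14 libraries, by zone; circles are set 1, triangles set 2, colours regions, and the line is the zone mean. The 5p to 3p ratio of miR-125b averages 8.41 in VZ and 8.65 in OSVZ against 10.1 in CP with no overlap, and the ratio of miR-99a-5p to miR-125b-5p lies above CP in all 10 germinal libraries.

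miR-99a-5p, the main product of the miR-99 gene clustered with let-7c, had shares of 5.88% and 9.63% in VZ_17 and 4.68% and 9.55% in VZ_18, against 2.54% and 4.89% in CP_17 and 4.69% and 6.84% in CP_18. In OSVZ its lowest share was 5.30%, the median 7.32% and the highest 11.8%. The highest library was OSVZ_17int replicate 2 and the lowest CP_17 replicate 1, and VZ overlapped with CP. By region the order was OSVZ_17int (9.27%), VZ_17 (7.75%), OSVZ_18 (7.61%), VZ_18 (7.11%), OSVZ_17ext (6.62%), CP_18 (5.77%) and CP_17 (3.71%), and no neighbours in this order were apart beyond their spread. Against CP, the scaled difference was 0.27 ± 0.39 in VZ (adjusted p = 0.728 by edgeR) and 0.54 ± 0.37 in OSVZ (adjusted p = 0.602). Its partner arm miR-99a-3p was at 0.31 ± 0.36 and 0.44 ± 0.34 in the same comparisons, and took 0.141% to 0.239% of counts in VZ, 0.0763% to 0.222% in OSVZ and 0.0746% to 0.149% in CP.

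miR-99b-5p, the main product of the miR-99 gene clustered with let-7e and miR-125a, had shares of 0.150% and 0.420% in VZ_17 and 0.176% and 0.339% in VZ_18, against 0.208% and 0.537% in CP_17 and 0.312% and 0.415% in CP_18. In OSVZ its lowest share was 0.170%, the median 0.318% and the highest 0.361%. The zones overlapped widely, and replicate 2 was above replicate 1 in each region. Against CP, the scaled difference of miR-99b-5p was -0.90 ± 0.36 in VZ (adjusted p = 0.142 by edgeR) and -0.48 ± 0.34 in OSVZ (adjusted p = 0.61). miR-99b-3p was at -0.02 ± 0.38 and -0.31 ± 0.36, and the first of these turned positive under other scalings.

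miR-100-5p, which shares the miR-99 seed and is clustered with let-7a, had shares of 0.326% and 0.155% in VZ_17 and 0.250% and 0.511% in VZ_18, against 0.258% and 0.495% in CP_17 and 0.432% and 0.591% in CP_18. In OSVZ its lowest share was 0.175%, the median 0.377% and the highest 0.845%. Its highest share was 3.29 times its lowest in VZ and 4.83 times in OSVZ, more than for the other 5p arms in these zones, and no zone stood apart. Against CP, its scaled difference was -0.82 ± 0.39 in VZ (adjusted p = 0.225 by edgeR) and -0.20 ± 0.36 in OSVZ (adjusted p = 0.868), where it was 0.053 with scaling to library totals. Without VZ_17 replicate 1, the VZ difference was -1.64 with an adjusted p of 0.00888 by edgeR, where 10.5% of all arms were called. Without VZ_18 replicate 1 and VZ_17 replicate 2 it was -0.03, so its size rests on single VZ libraries. miR-100-3p, at 0.394 to 17.0 CPM in VZ, 8.02 to 32.0 CPM in OSVZ and 5.30 to 11.0 CPM in CP, had differences of -0.02 ± 1.0 and 0.47 ± 0.95.

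**Figure D4:**
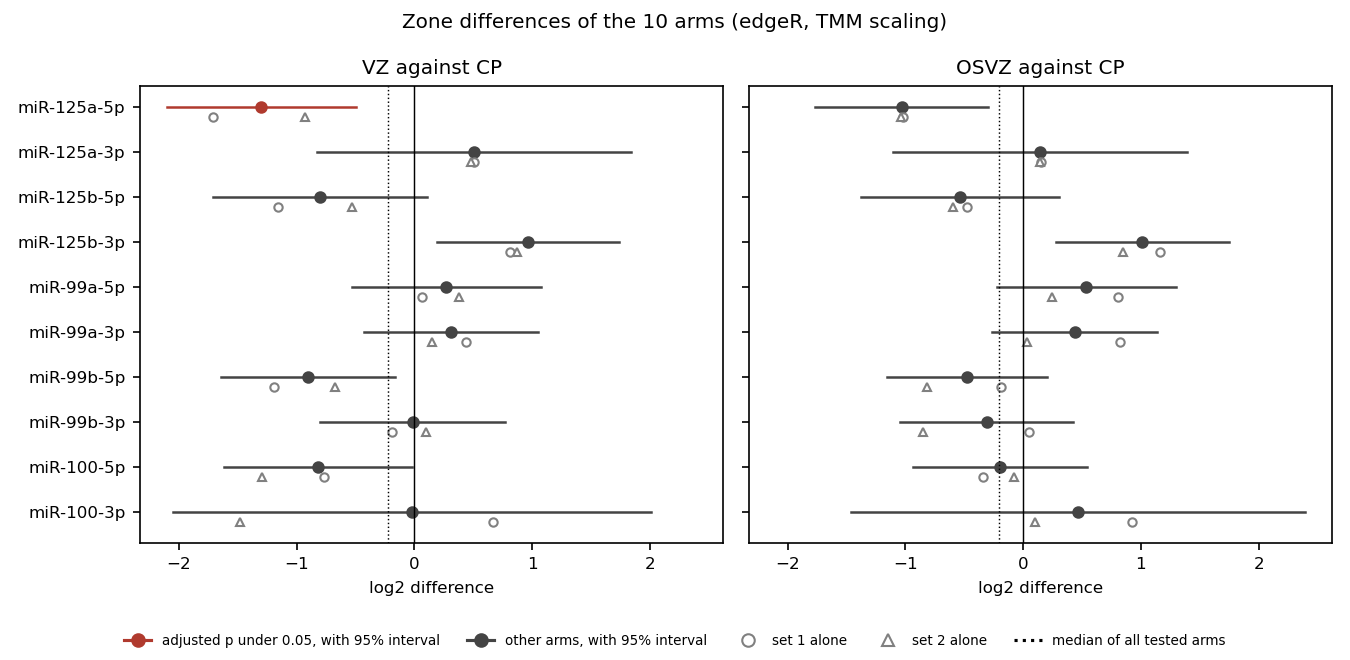
The log2 difference of each of the 10 arms with its 95% interval is plotted for VZ against CP (left) and OSVZ against CP (right), with the values of each set alone (open symbols) and the median of all tested arms (dotted line). miR-125a-5p in VZ against CP, at -1.30, is the one called difference, and miR-125b-3p lies at 0.97 and 1.01.

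In OSVZ against CP, 0 of 10 members were called by edgeR, where 6.32% of all arms were, and 2 of 10 had an unadjusted p under 0.05, where 15.5% of all arms had one. DESeq2 called 2, miR-125a-5p and miR-125b-3p, where it called 14.9% of the 808 arms it gave an adjusted p. The median difference of the 10 members was -0.02 in VZ against CP, beside -0.22 for all 1139 arms, and -0.03 in OSVZ against CP, beside -0.20. OSVZ and VZ share the CP libraries in these comparisons, so their values are given side by side and not as support for each other.

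Relations among the 5p arms within a library were also compared. The share of miR-125a-5p relative to miR-125b-5p was 0.104 to 0.156 in VZ, 0.101 to 0.139 in OSVZ and 0.147 to 0.203 in CP, with a log2 difference from CP of -0.47 in VZ (exact permutation p = 0.0571, adjusted 0.194) and -0.53 in OSVZ (exact permutation p = 0.00476, adjusted 0.0607). miR-99a-5p stood at 0.167 to 0.265 of miR-125b-5p in VZ, 0.172 to 0.305 in OSVZ and 0.0515 to 0.158 in CP. This ratio of the families was higher in all 10 germinal libraries than in all 4 CP libraries, by 1.07 on the log2 scale in both comparisons (exact permutation p = 0.0286 for VZ and 0.00476 for OSVZ, adjusted 0.104 and 0.0607). Within the miR-99/100 family, miR-99b-5p stood at 0.0254 to 0.0436 of miR-99a-5p in VZ, 0.0305 to 0.0445 in OSVZ and 0.0607 to 0.110 in CP, again without overlap, at -1.15 and -1.07. miR-100-5p stood at 0.0161 to 0.0555 of miR-99a-5p in VZ, 0.0330 to 0.0989 in OSVZ and 0.0864 to 0.102 in CP, at -1.25 and -0.86, and OSVZ overlapped with CP. miR-99b-5p and miR-125a-5p, of 1 cluster, had ratios of 0.0409 to 0.0893 in VZ, 0.0450 to 0.0922 in OSVZ and 0.0208 to 0.0752 in CP, which overlapped. Replicate 2 was above replicate 1 in each region, as in CP_17 with 0.0752 against 0.0208. Of the 12 ratios other than 5p to 3p, 5 did not overlap between VZ and CP, where 20.4% of 71631 pairs of arms at 10 CPM or more did not, and 3 did not overlap between OSVZ and CP, where 18.2% did not.

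The let-7 partners in the clusters were far less abundant in these counts. These counts are low for miRNAs known to be abundant in brain, and the treatment of reads matching several let-7 loci is unknown, which leaves the let-7 levels, differences and ratios uncertain. In mammals let-7 miRNAs accumulate as progenitors differentiate. The arm let-7c-5p had 62.4 to 122 CPM of unscaled counts in VZ, 12.8 to 152 CPM in OSVZ and 7.98 to 24.2 CPM in CP. It was higher in VZ than in CP by 2.01 ± 0.61 (adjusted p = 0.034 by edgeR) and in OSVZ than in CP by 1.87 ± 0.59 (adjusted p = 0.0467), while miR-99a-5p and miR-125b-5p of its cluster were not called. The difference was 1.68 in set 1 and 2.38 in set 2 for VZ, and 1.12 in set 1 and 2.55 in set 2 for OSVZ. Its call in VZ held in 7 of 8 other settings, not without the replicate block (adjusted p = 0.0647 by edgeR), and in 8 of 14 fits with 1 library left out (adjusted p 0.0105 to 0.269). In OSVZ it held in 5 of 8 settings (adjusted p = 0.0707 without the block) and in 7 of 14 such fits (adjusted p 0.0125 to 0.396). The highest adjusted p in both came without CP_17 replicate 2, at differences of 1.65 and 1.49. The other arm of the hairpin, let-7c-3p, averaged 102 TMM-scaled CPM against 54.0 for let-7c-5p and was not called. It was at -0.16 ± 0.50 in VZ and 0.04 ± 0.48 in OSVZ against CP. The ratio of miR-99a-5p to let-7c-5p was at -1.88 on the log2 scale in VZ against CP and that of miR-125b-5p to let-7c-5p at -2.95, both without overlap of libraries, and neither passed the adjustment (exact permutation p = 0.0286 each, adjusted 0.104). In OSVZ against CP these ratios were at -1.33 and -2.40, and both overlapped. let-7a-5p and let-7e-5p averaged 32.2 and 48.7 TMM-scaled CPM and were not called. The 5p arm made up only 7.41% to 70.5% of the let-7c counts, in contrast to the members. Of 16 tested arms of let-7 names, edgeR called 2 higher and 3 lower in VZ than in CP, where 7.37% of all arms were called, and 1 higher and 3 lower in OSVZ than in CP, where 6.32% were. Of the relatives by sequence, miR-10a-5p, miR-10b-5p, miR-4319-5p and miR-670-5p averaged 7.96, 27.7, 2.50 and 15.1 CPM and were not called.

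No member was called between OSVZ and VZ. Of the 10 arms, 0 were called by edgeR and 0 by DESeq2, and 0 had an unadjusted p under 0.05, where edgeR called 0.0878% of all arms, DESeq2 called 3.12% of 896 and 9.92% had an unadjusted p under 0.05. No member's shares were free of overlap, where 1.05% of arms were. The differences ran from -0.36 ± 0.61 for miR-125a-3p to 0.62 ± 0.37 for miR-100-5p (adjusted p = 0.537). Without VZ_17 replicate 1, miR-100-5p was at 1.52 with an adjusted p of 0.0467 by edgeR, where 2.11% of all arms were called. Without VZ_18 replicate 1 and VZ_17 replicate 2 it was at -0.025.

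Within the OSVZ of area 17, inner against outer sublayer, 0 members were called by edgeR, as were 0% of all arms, and 0 members had an unadjusted p under 0.05, where 4.04% of arms had one. The inner sublayer had 0.233% and 0.804% of miR-100-5p and the outer 0.175% and 0.378%, a difference of 0.81 ± 0.55, and miR-99a-5p took 6.69% and 11.8% in the inner and 5.30% and 7.94% in the outer sublayer. By share, each was higher in the inner sublayer in both sets, without passing the test. The arms ranged from -1.12 ± 0.94 for miR-125a-3p to 1.02 ± 1.42 for miR-100-3p. Area 17 against area 18 gave 0 members called in the germinal zones, from -0.47 for miR-125a-3p to 0.70 for miR-100-3p, and 0 in CP, from -0.60 ± 0.56 for miR-99a-5p to 0.99 ± 0.55 for miR-99b-3p, where 0% of all arms were called in either. No member had an unadjusted p under 0.05 in these, where 9.04% of arms had one in the germinal zones and 3.16% in CP. The VZ against CP difference itself was compared between areas 17 and 18 by an interaction term, which called 0 members, where 0.0878% of arms were called, and 0 had an unadjusted p under 0.05, where 5.79% of arms had one. It ran from -0.91 ± 1.31 for miR-125a-3p to 1.03 ± 0.79 for miR-99a-5p. DESeq2 called 0 members in each of these as well, where it called 0.176% to 3.05% of arms. These comparisons rest on few libraries, and the intervals of the members are wide.

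The arms whose TMM-scaled levels ran most like those of each main arm were found over the 14 libraries, after centring each set, among 166 arms averaging 100 CPM or more. The libraries share their scaling and zones, so the values describe and test nothing. Spearman's rho was 0.79 to 0.95 for the 3 arms nearest to miR-125a-5p, 0.71 to 0.93 for those of miR-125b-5p, 0.80 to 0.87 for miR-99b-5p, 0.67 to 0.80 for miR-99a-5p and 0.53 to 0.72 for miR-100-5p. For miR-125a-5p these were miR-342-3p (Pearson r 0.95), miR-505-3p (0.94) and miR-340-3p (0.91). For miR-125b-5p they were miR-361-3p (0.93), miR-296-5p (0.93) and miR-484-5p (0.90). miR-99b-5p was nearest to miR-484-5p (0.94), miR-342-3p (0.88) and miR-296-5p (0.88). miR-99a-5p was nearest to miR-145-5p (0.82), known from smooth muscle and pericytes, to miR-21-5p (0.75) and to miR-150-5p (0.71), known from lymphocytes. miR-100-5p was nearest to miR-374b-5p (0.85), miR-9-5p (0.73), a miRNA of neural progenitors and neurons, and let-7i-5p (0.73). Among the members, miR-125a-5p, miR-125b-5p and miR-99b-5p ran together at 0.84 to 0.88, whereas miR-99a-5p had 0.26 with miR-125b-5p and -0.18 with miR-125a-5p. With the arms of its own seed, miR-99a-5p had 0.22 (miR-99b-5p) and 0.19 (miR-100-5p).

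Marker arms of several other cell types also differed between zones. Of all tested arms, edgeR called 7.37% in VZ against CP and 6.32% in OSVZ against CP. In a fit of the arms averaging 10 CPM or more it called 23.7% in each. By edgeR, 2 of 8 mesenchymal and mural, 2 of 8 myeloid and lymphoid, 1 of 3 choroid plexus and pigment epithelium and 3 of 4 oligodendrocyte arms were called in VZ against CP, and 3, 1, 1 and 2 in OSVZ against CP, whereas 0 endothelial, erythroid, or liver and muscle arms were called in either. The 8 mesenchymal and mural arms summed to 969 to 1957 CPM in VZ, 1418 to 4937 CPM in OSVZ and 733 to 1175 CPM in CP, and the 8 myeloid and lymphoid arms to 740 to 996 CPM in VZ, 587 to 1189 CPM in OSVZ and 440.9 to 492.7 CPM in CP, where miR-142-3p was at 0. The choroid plexus and pigment epithelium arms summed to 209 to 1952 CPM in VZ, 166 to 957 CPM in OSVZ and 4947 to 7253 CPM in CP, and the 2 endothelial arms to 980 to 2795 CPM in VZ, 1434 to 5289 CPM in OSVZ and 1547 to 4505 CPM in CP. The choroid plexus sum was carried by miR-204-5p, at -3.84 in VZ against CP. miR-211-5p was at 1.46 and miR-211-3p at -3.26, neither called. The largest mural arm, miR-145-5p, was at 0.85 in VZ (not called) and 1.44 in OSVZ against CP (called). The other called arms of that list went opposite ways, miR-214-3p at 1.53 and 1.71 and miR-199b-5p at -2.29 and -2.38. The oligodendrocyte arms summed to 115 to 318 CPM in VZ, 97.5 to 158 CPM in OSVZ and 398 to 766 CPM in CP. This sum was carried by both arms of miR-338, at -2.41 and -2.37 in VZ against CP, whereas miR-219-3p was higher in VZ, at 2.80 (adjusted p = 0.00953 by edgeR), and miR-219-5p was at 1.47 (adjusted p = 0.476). Erythroid arms summed to 55.9 to 327 CPM in VZ, 18.7 to 103 CPM in OSVZ and 23.0 to 126 CPM in CP, and liver and muscle arms stayed at or under 93.5 CPM in all libraries. Their part in the member differences was not tested.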

How the data were processed

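The files deposited by the authors hold whole-number read counts for each miRNA name, with the 5p and 3p arms of a library in separate columns. Per the labels' protocols, RNA came from laser-cut sections and SOLiD libraries were selected for small RNA. How reads were aligned, to which genome build and miRNA annotation, and how reads with several matches were counted is not given in the sources used here. Near-identical arms may therefore share reads, which touches miR-99a and miR-100, miR-125a and miR-125b, and let-7.

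The tables list 861 and 868 names, 828 of them in both, each with at least 10 counts in total. Columns were assigned to set 1 or 2 by how regions are spelled. Another 12 columns, whose names fit no label, stayed out, and 6 labelled samples are not analysed here. No pair among the 91 pairs of libraries was identical. filterByExpr kept 1139 arms with 99.99% of the counts, and all 10 member arms passed. TMM scaling and the quasi-likelihood test of edgeR 4.0.16 (R 4.3.3) were used (6 residual and 28.1 prior degrees of freedom), over all 14 libraries with the set as a block, and adjusted by Benjamini-Hochberg over the 1139 arms at 0.05. The biological coefficient of variation was 41.1% to 96.4% for members. Same-set libraries deviated together (median r 0.589, 21 of 21 region pairs above 0.1, over the 379 arms averaging 10 CPM or more). Over all tested arms it was 0.354, with 20 of 21 pairs above 0.1. The labels give each set its own embryonic day.

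Ratios were log2 of counts plus 0.5, tested by exact two-sided permutation. The libraries were permuted without regard to set, so these p-values ignore that same-set libraries deviated together. Alternatives were the fit without the block, DESeq2 1.42.0, other scalings and filters, a pseudocount of 5 and left-out libraries. Named arms were the members, the let-7 partners in their clusters, sequence relatives, and the 3 most correlated arms of each main arm. The members and lists were chosen with earlier results of these data known. Counts of amplified reads are not independent molecules.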

Additional observations from a re-analysis of the deposited data

Results flagged for a closer look

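Samples far from the others of their zone were looked for in 66 groups of values, and 2 were found, where chance alone gives about 1 in 20. The share of miR-99a-3p in OSVZ was lowest in OSVZ_17int replicate 1, at 0.0763% of library counts, with the other 5 OSVZ libraries between 0.175% and 0.222%. The log2 ratio of miR-100-5p to miR-99a-5p in VZ was lowest in VZ_17 replicate 2, at -5.95, with the other 3 VZ libraries between -4.23 and -4.17. That library also held only 2 counts of miR-100-3p.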

How the results depend on the processing

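The median of all tested arms under TMM, DESeq2 size factors and library totals was -0.22, 0.02 and 0.21 in VZ against CP, -0.20, -0.05 and 0.04 in OSVZ against CP, and 0.12, 0.02 and -0.12 in OSVZ against VZ, and differences are read relative to it. The number of members called in VZ against CP, 1 with the replicate block, was 0 with no replicate block (4.65% of all tested arms called), 2 with DESeq2 (19.3% called), 0 with no filter (5.21%), 2 among arms averaging 10 CPM or more (23.7%), and 0 to 1 with 1 library left out (4.65% to 10.5%). The arm called was miR-125b-3p in place of miR-125a-5p with DESeq2 size factors, with library totals, and without VZ_17 replicate 2, VZ_18 replicate 1 or both, and miR-100-5p without VZ_17 replicate 1. These settings called 5.62% to 10.5% of all arms. In OSVZ against CP the number of members called was 2 with DESeq2 (14.9%), 1 with DESeq2 size factors in edgeR (6.94%), 1 with library totals (6.32%) and 2 among arms averaging 10 CPM or more (23.7%). It was 2 without VZ_18 replicate 1 and VZ_17 replicate 2 together (11%), and 0 to 1 with 1 library left out (3.86% to 8.78%). In OSVZ against VZ it was 0 to 1 with 1 library left out (0% to 2.11%). The call was miR-100-5p without VZ_17 replicate 1, where 2.11% of all arms were called, against 0.0878% with all libraries. No ratio passed in any setting. For VZ against CP, permutation within sets (replicate block) could not have passed any, since its few arrangements keep the smallest possible p above 0.05. The adjusted p of miR-125a-5p in VZ against CP was 0.0824 with DESeq2 size factors and 0.056 with library totals, which put the difference at -0.87.

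Direction turned in these cases. miR-99b-3p in VZ against CP was 0.23 with DESeq2, 0.23 with its size factors, 0.49 with library totals, 0.22 with no filter, 0.21 among these more abundant arms, and -0.19 to 0.18 with 1 library left out. miR-100-3p in VZ against CP was 0.20 with no block, 0.28 with DESeq2, 0.28 with its size factors, 0.36 with library totals, 0.18 with no filter, 0.16 among these more abundant arms, 0.95 without both VZ libraries, and -2.43 to 0.77 with 1 left out. miR-100-5p was 0.053 in OSVZ against CP with library totals and -0.025 in OSVZ against VZ without both VZ libraries. With 1 library left out, miR-99a-5p in VZ against CP ran from -0.11 to 0.74, miR-99b-3p in OSVZ against CP from -0.86 to 0.17, and miR-100-3p in area 17 against 18 of the germinal zones from -1.77 to 1.37. The 5p to 3p ratio ran from -0.26 to 0.11 in VZ and -0.044 to 0.27 in OSVZ against CP for miR-99a, from -0.49 to 0.031 in OSVZ against CP for miR-99b, and for miR-100 from -1.10 to 0.25 in VZ against CP and -1.33 to 0.023 in OSVZ against VZ. The cause was not tested. The members with the lowest counts were miR-100-3p and miR-125a-3p. Of these, miR-125a-3p did not turn in the comparisons followed, while the abundant miR-99a-5p did.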

Other observations

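By share of library counts the 5p arms of the miR-99/100 family were higher in set 2, as were most abundant arms: over the 379 arms averaging 10 CPM or more the median shift was 0.68 on the log2 scale, and 19% were higher in set 2 in 7 of 7 regions. The share of miR-99a-5p was higher in set 2 (embryonic day 79) than in set 1 (embryonic day 80) in 7 of 7 regions, by a median of 0.71 on the log2 scale, at 4.89% to 11.8% in set 2 and 2.54% to 6.69% in set 1. miR-99b-5p was higher in 7 of 7 regions, by 0.94, and miR-100-5p in 6 of 7, by 1.03. On the TMM scale the shifts of miR-99a-5p, miR-99b-5p and miR-100-5p were -0.26, 0.07 and 0.13, and these were higher in 3, 4 and 6 of 7 regions. miR-125a-5p was higher in set 2 in 3 of 7 regions by share and in 0 of 7 on the TMM scale, with shifts of -0.13 and -0.72, and miR-125b-5p in 4 and 1, with shifts of 0.09 and -0.88. The related miR-10b-5p was higher in set 2 in 6 of 7 regions, by 3.50 in share and 2.25 on the TMM scale. Set and embryonic day cannot be told apart here.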
